A study of Homo sapiens with 6 samples.

Results

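The CHD genes encode chromatin remodellers, enzymes that spend ATP to slide, space or evict nucleosomes. The 9 genes described here, CHD1, CHD1L, CHD2, CHD3, CHD4, CHD6, CHD7, CHD8 and CHD9, were taken by symbol from a deposited table of 32692 human genes, and all 9 were found. CHD1L was included because the series title names it as the drug target. RNA was measured in DU145, an established human prostate carcinoma cell line, after 24 h with 5 µM OTI-611 (3 libraries) or after 24 h with its solvent DMSO (3 libraries). OTI-611 is known here by its code name only, and all libraries come from the same cell line with no other agent named. CHD5, the remaining CHD gene in the table, is given for comparison.

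Proteins of the CHD family share a SNF2-like ATPase motor, and the numbered ones carry a pair of chromodomains. They fall into 3 groups. CHD1 and CHD2 carry a DNA-binding domain and work on transcribed chromatin. CHD3, CHD4 and CHD5 carry PHD fingers and serve as alternative motors of NuRD, a complex that joins nucleosome remodelling to histone deacetylation. CHD6 to CHD9 form the last group. CHD1L, also called ALC1, lacks chromodomains and has a macro domain that binds poly(ADP-ribose), the polymer that PARP enzymes lay down at DNA damage. Loss of CHD1 is a recurrent event in prostate cancer, and CHD1L is known as an oncogene in liver cancer.

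Values are in RPKM, reads per kilobase of gene and per megaread mapped, so that levels of different genes can be compared. The columns of 5 libraries behave as RPKM and sum to between 304260 and 314127. DMSO 1 was deposited in whole numbers, taken here to be RPKM cut to whole units. For 8 of the 9 genes, all but CHD3, it lay within the range of DMSO 2 and DMSO 3 once these were cut in the same way. Depth, inferred from the spacing of low values, came to between 37.2 and 37.7 M (megareads) per OTI-611 library, and to 30.5 and 32.3 M in DMSO 2 and DMSO 3. The epithelial keratin genes KRT8 and KRT18 averaged 105 and 99.1 RPKM with OTI-611 and 149 and 99.3 RPKM with DMSO, and of 4 epithelial markers KRT8 and CDH1 fell. PTPRC and PECAM1, which mark blood and endothelial cells, and the androgen target KLK3 stayed under 0.1 RPKM in every library. Whether the 3 libraries of a group came from separate cultures is not given in the labels, so the p-values measure the spread between these libraries, which may be technical. In bulk RNA, fewer cells expressing a gene and less RNA per cell cannot be told apart.

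The family spanned a wide range of levels. With OTI-611, CHD3 stood highest at a mean of 23.0 RPKM, followed by CHD8 at 21.7, CHD1 at 20.8, CHD2 at 20.2, CHD9 at 7.81, CHD7 at 6.05, CHD6 at 5.23, CHD4 at 1.17 and CHD1L at 0.641 RPKM. In DMSO 2 and DMSO 3, CHD3 again stood highest at 26.8 RPKM and CHD8 next at 22.9, with CHD1 at 16.5, CHD2 at 14.9, CHD9 at 7.07, CHD6 at 5.79, CHD7 at 5.01, CHD4 at 2.27 and CHD1L at 0.677 RPKM. CHD6 and CHD7 thus changed places between the groups. Within each of these groups, neighbouring genes among the 9 did not overlap in this order, although CHD1 and CHD2 came close with OTI-611 (lowest CHD1 value 20.4 RPKM, highest CHD2 value 20.3 RPKM). The range of CHD1L overlapped that of CHD5 with OTI-611, where CHD5 averaged 0.573 RPKM. In DMSO 2 and DMSO 3, CHD5 averaged 1.31 RPKM and lay above CHD1L.

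**Figure D1:**
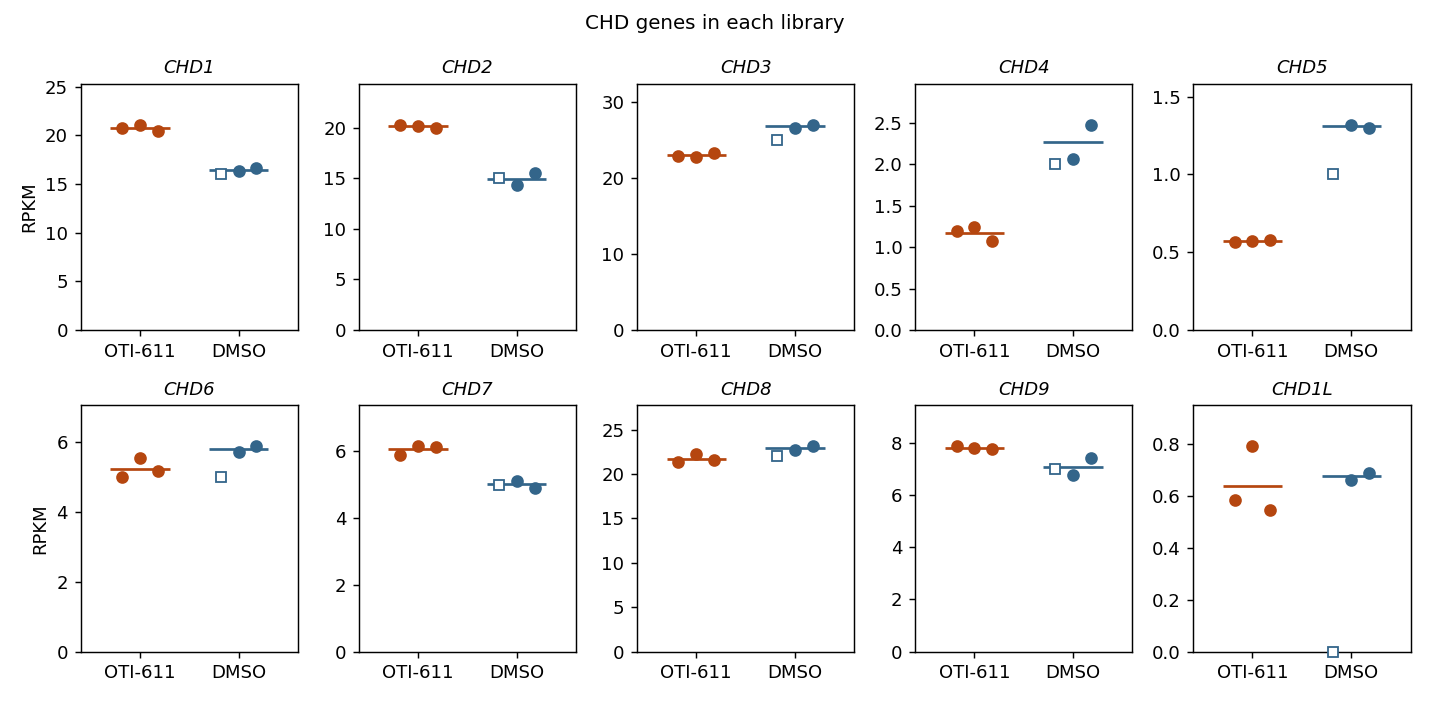
Level of each CHD gene in RPKM (vertical axes, from 0 and scaled per gene) in the OTI-611 and DMSO libraries. Circles are libraries with decimals, the open square is DMSO 1, whose decimals were dropped, and lines are means of the 3 OTI-611 libraries and of DMSO 2 and DMSO 3. The 3 OTI-611 libraries lie above all 3 DMSO libraries for CHD1, CHD2, CHD7 and CHD9 and below them for CHD3, CHD4 and CHD5.

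CHD1L, the named target, was the lowest of the 9. It had 0.585, 0.792 and 0.546 RPKM with OTI-611, against 0, 0.662 and 0.691 RPKM in the DMSO libraries, where the 0 belongs to DMSO 1 and stands for any value under 1. The OTI-611 values lay on both sides of the DMSO 2 and DMSO 3 values. On GENCODE exon length these levels come to an estimated 74, 99 and 69 reads with OTI-611 and 68 and 75 reads in DMSO 2 and DMSO 3. The 95% counting intervals ran from 0.422 to 0.960 RPKM over the OTI-611 libraries and from 0.512 to 0.862 RPKM over DMSO 2 and DMSO 3, so all 5 intervals overlapped. The authors' exon length may differ, PCR copies are not separate molecules, and these intervals cover counting error only.

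In the 5 libraries with decimals the log2(RPKM + 1) of CHD1L differed by -0.03 between OTI-611 and DMSO, with a 95% interval from -0.29 to 0.23 (limma adjusted p = 0.82). An exact permutation test over these 5 libraries gave a two-sided p of 0.80, where the smallest it can give is 0.20. No difference in CHD1L was detectable at this level. The log2(RPKM + 1) scale understates the change of so low a gene, so the interval leaves room for larger relative changes in RPKM. CHD1L lies on chromosome 1 from 147242641 to 147295766 (plus strand, GRCh38, GENCODE v29), and exons of other genes cover 7.85% of its exon bases, 1.10% on the same strand. One of these genes, FMO5, which encodes a flavin monooxygenase and lies on the opposite strand, had 1.16, 1.2 and 1.41 RPKM with OTI-611 and 2, 2.55 and 2.19 RPKM with DMSO. The use of strand in the authors' counting is not given in the sources used here, and the part of shared reads in the CHD1L level was not tested.

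CHD1 and CHD2 both rose. CHD1, which binds trimethylated lysine 4 of histone H3 and accompanies RNA polymerase II, had 20.8, 21.1 and 20.4 RPKM with OTI-611, against 16, 16.3 and 16.6 RPKM with DMSO. Every OTI-611 library lay above every DMSO library. Its mean was 1.26-fold that of DMSO 2 and DMSO 3, and its difference in log2(RPKM + 1) was 0.33 ± 0.034 (SE, limma adjusted p = 2.4e-05). CHD2, a remodeller whose loss causes a childhood epilepsy, had 20.3, 20.2 and 20.0 RPKM with OTI-611, against 15, 14.3 and 15.5 RPKM with DMSO. These groups did not overlap either. The mean of CHD2 was 1.35-fold that of DMSO 2 and DMSO 3, and the difference of 0.41 ± 0.039 (SE, limma adjusted p = 1.4e-05) had the smallest p of the 8 genes tested. In GENCODE v29 no exon of another gene overlaps CHD1 (chromosome 5, 98853985 to 98928957), while 10.2% of the exon bases of CHD2 (chromosome 15, 92900189 to 93028005) lie in same-strand exons of other genes.

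Each of these genes has a noncoding neighbour at its start, and the neighbours went opposite ways. CHD1-DT, transcribed away from CHD1 and separated from it by 213 bases, had 0.709, 0.708 and 0.664 RPKM with OTI-611, against 1, 1.26 and 1.22 RPKM with DMSO. All OTI-611 values lay below all DMSO values. It fell in the 5 libraries with decimals by 0.40 on the log2(RPKM + 1) scale (limma adjusted p = 0.020), a call that was lost without any 1 of the OTI-611 libraries, after quantile normalization, or with DMSO 1 added. CHASERR, a long noncoding RNA that ends 487 bases before CHD2 and is known in mouse to restrain it in cis, had 9.62, 8.65 and 8.94 RPKM with OTI-611, against 7, 6.98 and 8.08 RPKM with DMSO. CHASERR rose by 0.27 (limma adjusted p = 0.0050), and stood at 0.24 (limma adjusted p = 0.066) in the 5 libraries with decimals and no filter on low values. The call was also lost with the decimals of all columns dropped (limma adjusted p = 0.14). Exons of a same-strand gene model that overlaps both loci cover 4.17% of CHASERR.

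The stretches just before the starts of CHD1, CHD2 and CHD1L are shown because CHD1 and CHD2 rose together and CHD1L is the named target. They are from RefSeq on GRCh38.p14, cut to end before the first base of the gene in GENCODE v29, and run 5′ to 3′ on each gene's strand. They are chr5:98929008-98929257 (minus strand), chr15:92900074-92900188 (plus strand) and chr1:147242434-147242640 (plus strand). The CHD1 stretch runs across part of the gap to CHD1-DT and into that gene. Capitals mark the GC box GGGCGG and the CCAAT box, on either strand.
CHD1: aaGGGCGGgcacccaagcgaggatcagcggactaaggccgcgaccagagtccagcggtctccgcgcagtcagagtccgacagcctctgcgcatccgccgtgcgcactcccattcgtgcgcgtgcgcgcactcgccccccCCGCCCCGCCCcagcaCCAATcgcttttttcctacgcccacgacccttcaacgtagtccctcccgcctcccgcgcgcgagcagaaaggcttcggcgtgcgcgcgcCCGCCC
CHD2: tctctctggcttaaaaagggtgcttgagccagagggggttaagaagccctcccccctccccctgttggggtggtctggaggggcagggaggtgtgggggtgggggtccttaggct
CHD1L: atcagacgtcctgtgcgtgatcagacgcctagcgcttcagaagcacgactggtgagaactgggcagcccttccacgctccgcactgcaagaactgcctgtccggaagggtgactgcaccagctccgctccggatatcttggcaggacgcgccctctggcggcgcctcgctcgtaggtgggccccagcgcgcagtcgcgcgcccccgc

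The CHD1 stretch holds 4 GC boxes, of which 2 overlap, and 1 CCAAT box, whereas the CHD2 and CHD1L stretches shown hold 0 of either. CHD1L has 3 RefSeq windows, and the other two, not shown, hold GC boxes. The GC content of the 3 stretches is 70.8%, 63.5% and 67.1%. RefSeq windows were at hand for CHD1, CHD1L, CHD2, CHD3, CHD4, CHD8 and CHD9, 12 windows of 250 bases before a start in all. The FOXO core GTAAACA, searched on both strands since the title names FOXO3, occurred in 0 of these 12 and in 2.98% of 35114 windows of all genes. The composite site TGATGNAAT of the stress factors ATF4 and CHOP also occurred in 0 of the 12, against 0.889% of all windows, and the GC box in 7 of the 12, against 42.6%. Such matches describe letters only.

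CHD3, CHD4 and CHD5, the NuRD motors, were all lower with OTI-611. CHD3, on chromosome 17 from 7884806 to 7912760, had 22.9, 22.8 and 23.3 RPKM with OTI-611, against 25, 26.6 and 27 RPKM with DMSO. Its libraries separated the groups, and its mean was 0.858 of that in DMSO 2 and DMSO 3 (difference in log2(RPKM + 1) of -0.18 ± 0.036 SE, limma adjusted p = 0.0019). CHD4, the main NuRD motor in many cell types, had 1.19, 1.24 and 1.08 RPKM with OTI-611, against 2, 2.06 and 2.48 RPKM with DMSO. The groups did not overlap. The CHD4 mean was 0.514 of that in DMSO 2 and DMSO 3, and its difference was -0.55 ± 0.11 (SE, limma adjusted p = 0.0018), on a scale that understates the change of so low a gene. With a pseudocount of 0.1 in place of 1 the CHD4 difference was -0.84.

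Shared exons limit the reading of CHD4 more than that of the other members. CHD4 lies on chromosome 12 from 6570082 to 6614524, and exons of other genes cover 53.5% of its exon bases, 46.9% on the same strand. Of its distinct 50-base transcript sequences, 50.1% occur in a transcript of another gene, mostly AC006064.6, a protein-coding gene model that overlaps CHD4 on its strand and is not analysed here. For CHD1, CHD3, CHD6 and CHD7 the same share was 0%, and for CHD1L 4.19%, CHD8 3.44%, CHD2 9.54% and CHD9 0.190%. How the authors treated reads on shared bases is not given in the sources used here, and the part of such reads in the low CHD4 level, or in its fall, was not tested. The level of CHD4 against CHD3 is therefore uncertain. The antisense gene ENSG00000247853, which also overlaps CHD4, was listed under 0.1 RPKM in every library.

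CHD5, a NuRD motor known mainly from neurons, had 0.566, 0.573 and 0.581 RPKM with OTI-611, against 1, 1.32 and 1.3 RPKM with DMSO. The OTI-611 values lay closely together and below every DMSO value. Its mean over the libraries was under 1 RPKM, so it was tested in the 5 libraries with decimals and no filter, where it fell by 0.55 (SE 0.081, limma adjusted p = 0.0068), and the call was lost when DMSO 1 was added (adjusted p = 0.11). The within-library log2 ratio of CHD3 to CHD4, which does not depend on library scaling, was 4.27, 4.20 and 4.43 with OTI-611, against 3.64, 3.69 and 3.44 with DMSO. The ratio was higher in every OTI-611 library, by 0.71 on average, with an exact two-sided permutation p of 0.10, the smallest that 3 against 3 libraries allow.

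In the group from CHD6 to CHD9, CHD7 and CHD9 rose and CHD6 and CHD8 did not pass. CHD6 lies on chromosome 20 (41402101 to 41618494), CHD7 on chromosome 8 (60678778 to 60868028), CHD8 on chromosome 14 (21385194 to 21456126) and CHD9 on chromosome 16 (53055033 to 53329150). CHD7, the gene mutated in CHARGE syndrome, had 5.89, 6.14 and 6.12 RPKM with OTI-611, against 5, 5.11 and 4.90 RPKM with DMSO. The groups did not overlap, and CHD7 rose by 0.23 ± 0.054 (SE, limma adjusted p = 0.0040), 1.21-fold against DMSO 2 and DMSO 3. CHD9 had 7.85, 7.80 and 7.77 RPKM with OTI-611, against 7, 6.75 and 7.39 RPKM with DMSO. CHD9 passed narrowly, with a difference of 0.13 ± 0.050 (SE, limma adjusted p = 0.043), and its call was lost without any 1 library other than DMSO 3 (adjusted p from 0.060 to 0.14). With the decimals of all columns dropped, which puts DMSO 1 on the same footing as the others, CHD7 had a difference of 0.24 and CHD9 of 0.06, and neither passed (limma adjusted p = 0.13 and 0.41).

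CHD8, an autism gene whose protein binds beta-catenin and restrains its target genes, had 21.3, 22.2 and 21.6 RPKM with OTI-611, against 22, 22.7 and 23.1 RPKM with DMSO. Its difference was -0.06, with a 95% interval from -0.13 to 0.02 (limma adjusted p = 0.18). CHD6 had 4.99, 5.53 and 5.16 RPKM with OTI-611, against 5, 5.70 and 5.87 RPKM with DMSO, a difference of -0.07 with an interval from -0.22 to 0.09 (limma adjusted p = 0.44). For both genes the groups overlapped only through DMSO 1, and all OTI-611 values lay below DMSO 2 and DMSO 3. After quantile normalization the differences were -0.01 for CHD8 and 0.00 for CHD6.

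**Figure D2:**
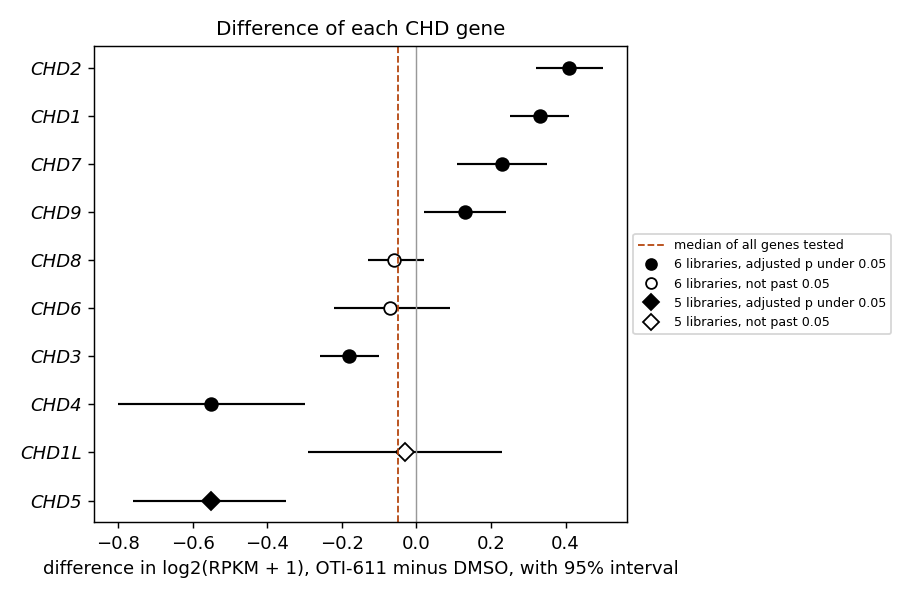
Difference in log2(RPKM + 1), OTI-611 minus DMSO (horizontal axis), for each CHD gene, with 95% intervals from limma. Circles are genes fitted in 6 libraries and diamonds genes under the minimum level, fitted in 5. Filled symbols passed an adjusted p of 0.05, and the dashed line is the median of all genes tested, -0.05. CHD2 and CHD1 lie furthest to the right, CHD4 and CHD5 furthest to the left.

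Of the 8 genes that passed the minimum mean of 1 RPKM, 4 rose (CHD1, CHD2, CHD7 and CHD9), 2 fell (CHD3 and CHD4) and 2 did not pass, with a median difference of 0.04. CHD1L did not reach that minimum. Over all 11978 genes tested, 65.2% passed, 27.8% higher and 37.3% lower, with a median of -0.05, so that 6 of 8 members in either direction is a share near the background. The OTI-611 libraries stood entirely above the DMSO libraries in 4 of the 8 genes, against 30.5% of all genes tested, and below them in 2 of the 8, against 39.7%. Groups apart on either side made up 70.2% of all genes tested. Over the 5 libraries with decimals the groups were apart in all 8 tested members, since CHD6 and CHD8 then lay below, against 79.7% of the same 11978 genes. In the fit of those 5 libraries with no filter, CHD1, CHD2 and CHD7 were higher, against 9.55% of 31787 genes, and CHD3 and CHD4 lower, against 20.4%. That fit includes the low genes, so its shares are not a like background for members above the minimum. With the minimum mean of 1 RPKM kept, the same 5 libraries gave 3183 genes higher and 5080 lower of 12119. There, 3 members were higher and 2 lower. Without the filter, either direction took 29.9% of the 31787, and 12.2% of the 19809 genes with a mean under 1 RPKM, the class of CHD1L and CHD5.

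The summed level of the 9 genes was 105.8, 107.8 and 105.9 RPKM with OTI-611, against 100.2 and 103.5 RPKM in DMSO 2 and DMSO 3. CHD1 made up 19.2% to 19.7% of that sum with OTI-611, against 16.0% and 16.3% in DMSO 2 and DMSO 3. The share of CHD2 was 18.7% to 19.2% with OTI-611, against 14.3% and 15.0%. CHD3 took 21.2% to 22.0% with OTI-611, against 26.6% and 26.1%, and CHD4 1.02% to 1.15%, against 2.06% and 2.40%. The shares of the 2 groups did not overlap for these 4 genes, nor for CHD6, CHD7, CHD8 and CHD9. Shares of a common sum depend on each other. Over these 5 libraries the RPKM values were apart in 79.7% of the 11978 genes tested. CHD1L held 0.516% to 0.735% of the sum with OTI-611, a range that encloses its 0.661% and 0.668% in DMSO 2 and DMSO 3.

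**Figure D3:**
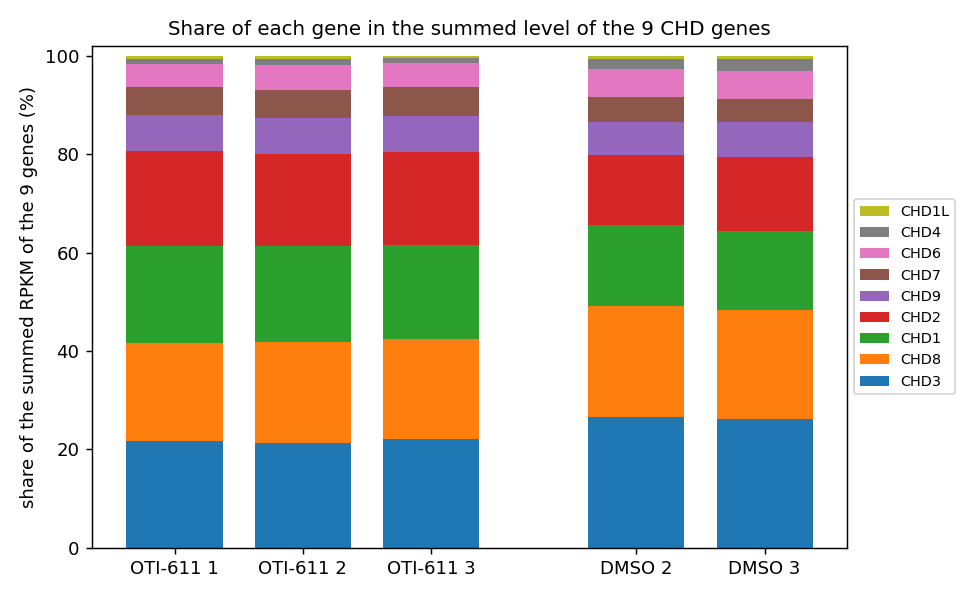
Share of each gene in the summed RPKM of the 9 CHD genes (vertical axis, percent) in the OTI-611 libraries and in DMSO 2 and DMSO 3, one bar per library. The bands of CHD1 and CHD2 are wider and that of CHD3 narrower in the OTI-611 libraries.

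Genes of the proteins that work with these remodellers went both ways, and the lists were small. Of all 11978 genes tested, 27.8% were higher and 37.3% lower, which is the background for each list. Of 11 other NuRD subunit genes tested, 2 rose and 5 fell, with a median difference of -0.04. MBD3, the subunit that joins the remodelling and deacetylase parts of the complex, had 5.23, 5.89 and 5.86 RPKM with OTI-611, against 10, 11.8 and 10.7 RPKM with DMSO, and fell by 0.83 on the log2 scale (limma adjusted p = 5.9e-06). The deacetylase gene HDAC1 fell by 0.51, the histone chaperone gene RBBP4 by 0.43 and CDK2AP1 by 0.30, while GATAD2A (0.28) and MBD2 (0.17), the methyl-CpG reader alternative to MBD3, rose. The call of MBD2 was lost without OTI-611 2 and with all decimals dropped. GATAD2B, under the minimum level, had 1.22, 1.2 and 1.23 RPKM with OTI-611 and 0, 0.745 and 0.746 RPKM with DMSO, and rose by 0.34 in the 5 libraries with decimals (limma adjusted p = 0.030), a call lost without any 1 of them and with DMSO 1 added. ADNP, which pairs with CHD4 and heterochromatin protein HP1, fell by 0.10, a call lost in 6 of 15 alternatives, other scalings among them. The HP1 genes CBX5, CBX3 and CBX1 fell by 0.57, 0.47 and 0.24 and kept their calls in all 15.

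Of 8 elongation factor genes that work with CHD1, 4 rose and 2 fell (against 27.8% and 37.3% of all genes tested), with a median of 0.06. The PAF1 complex genes CDC73 (0.45), PAF1 (0.32) and LEO1 (0.23) and the FACT gene SSRP1 (0.18) rose, SUPT16H (-0.26), the other FACT subunit, and RTF1 (-0.35) fell, and CTR9 (-0.10) and SUPT6H (-0.06) did not pass. SPOP (-0.08) and MAP3K7 (-0.06), often altered together with CHD1 in prostate cancer, did not pass. Among the alternatives, CTR9 passed in 2 of 15 and SPOP in 1 of 15. Of 6 genes for partners of CHD8, the histone methyltransferase subunit RBBP5 (0.47) and the insulator factor CTCF (0.12) rose, DPY30 (-0.30) and WDR5 (-0.08) fell, and CTNNB1 (0.01) and ASH2L (0.07) did not pass. The call of WDR5 was lost in 9 of 15 alternatives. Same-strand exons of another gene, MEMO1, cover 50.5% of the exon bases of DPY30, and the part of shared reads in its fall was not tested. Of 7 genes of the poly(ADP-ribose) cycle that recruits CHD1L, PARP1 (-0.50) fell, PARP2 (0.40), PARG (0.19) and XRCC1 (0.16) rose, and HPF1 (-0.13), ADPRS (0.13) and APLF (0.24) did not pass. PARP2 lost its call in 4 of 14 alternatives, with a difference of 0.19 when all decimals were dropped, and XRCC1 in 6 of 15. Conversely, HPF1 passed in 5 of 15 alternatives, ADPRS in 6 of 15 and APLF in 1 of 14. Among genes reported as CHD1L targets in liver cancer, TPT1 (0.19) rose and SPOCK1 stayed under 0.1 RPKM in every library.

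**Figure D4:**
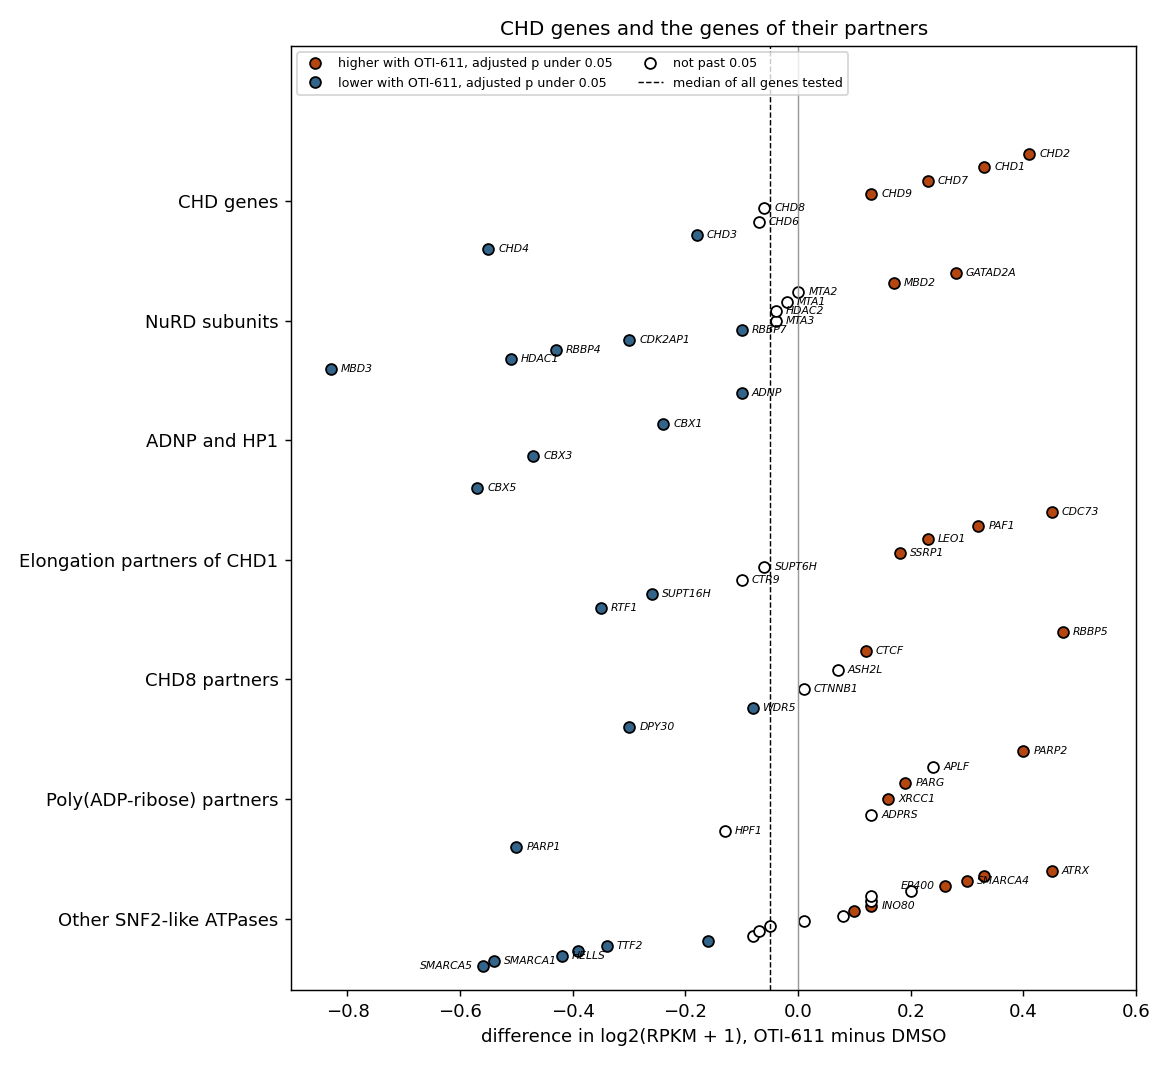
Difference in log2(RPKM + 1), OTI-611 minus DMSO (horizontal axis), for tested CHD genes and for tested genes of 6 related lists (rows, spread vertically for legibility). Orange points rose and blue points fell at a limma adjusted p of 0.05, white points did not pass, and the dashed line is the median of all genes tested. MBD3 lies furthest to the left, at -0.83.

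Other SNF2-like ATPases gave a set with both directions as well, 6 higher and 6 lower of 20 tested. Of all genes tested, 27.8% were higher and 37.3% lower. The median of these ATPases was 0.04, the same as for the CHD genes. ATRX (0.45), EP400 (0.26), SMARCA4 (0.30) and INO80 (0.13) rose, and the ISWI motors SMARCA5 (-0.56) and SMARCA1 (-0.54), HELLS (-0.42) and TTF2 (-0.34) fell. SMARCA4 and INO80 lost their calls with all decimals dropped (limma adjusted p = 0.059 for both), and INO80 also without DMSO 2. SRCAP, under the minimum level like CHD1L, had 1.10, 1.11 and 1.13 RPKM with OTI-611 and 0, 0.575 and 0.593 RPKM with DMSO, and 76.0% of its exon bases lie in exons of other genes, more than for CHD4. It rose by 0.42 in the 5 libraries with decimals (limma adjusted p = 0.017), and the call was lost without OTI-611 2 and with DMSO 1 added.

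The short RNA genes inside CHD genes had low values that varied between libraries. SNORD9, inside CHD8, had 2.32, 1.54 and 1.02 RPKM with OTI-611 and 0, 1.25 and 0.296 RPKM with DMSO, so the groups overlapped. Its difference of 0.85 passed in the 6 libraries (limma adjusted p = 0.031) but stood at 0.59 (limma adjusted p = 0.25) in the 5 with decimals. SCARNA21, inside CHD3, had 0.771, 0.385 and 0.762 RPKM with OTI-611 and 0, 0 and 0.222 RPKM with DMSO (limma adjusted p = 0.052 in the 5 libraries), and SCARNA11, inside CHD4, was listed at 0 in all but DMSO 2. CHD9NB, a gene beside CHD9, had 0.304, 0.393 and 0.274 RPKM with OTI-611 and 0, 0.228 and 0.278 RPKM with DMSO, with no call (limma adjusted p = 0.44).

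Closeness of profile was measured as the root mean square difference between centred log2(RPKM + 1) values over the libraries. Among 11977 other tested genes, the 3 closest to CHD2 over 6 libraries were SLC7A1, a transporter of cationic amino acids, CAPRIN2 and LAMTOR3, at 0.012, 0.016 and 0.021, against a median of 0.27 for all genes. Their own differences were 0.40, 0.41 and 0.39. For CHD1L over 5 libraries they were RUFY2, HOXA3 and PMEPA1, at 0.027, 0.028 and 0.028, against a median of 0.17. The own differences of these 3 over 6 libraries were 0.02, -0.05 and 0.12. All these profiles come from the same libraries.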

How the data were processed

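The table gives 1 value per gene for 6 libraries. The authors deposited 5 columns read here as RPKM from their decimals and steps, which FPKM would give too, and 1 column (DMSO 1) of whole numbers, listed as a score because its unit is not stated but fitted as RPKM with its decimals dropped. The tools named in the submitters' processing notes are TopHat2 2.0.9, HTSeq, Cufflinks 2.1.1, CASAVA 1.7 and FastQC. The build named there is mm10, a mouse build, although the gene IDs are human. Per the labels' protocols, complementary DNA was amplified by the Geo-seq method before library construction, and no molecular identifiers are named. Genes with a mean of at least 1 were fitted as log2(value + 1) with limma 3.58.1 in R 4.3.3 (two-sided, group as only term, variance trend on mean level, p-values adjusted by Benjamini-Hochberg over every gene tested, threshold 0.05). CHD1L was fitted on the 5 libraries with decimals and no filter. CHD5, CHD1-DT, GATAD2B and SRCAP were fitted likewise after their values were seen. Permutation tests used SciPy 1.17.1. The fit was tested on simulated data.

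The members and lists were chosen with earlier results of these data known. Of 92 listed symbols 89 matched, and the others were not analysed here. All members, every gene of lists of up to 8 genes, and the 4 genes of smallest p in each direction of longer lists are named, with the 3 closest profiles of CHD1L and of the member of smallest p. Some listed genes are not reported here. GATAD2B and SRCAP were added after their values were seen. Depth was estimated as the number of reads at which most low values are whole, 71.2% to 72.4% of them within 0.05 reads, on exon lengths of GENCODE release 29. Replicates with decimals differed by 3.25 to 5.21 times the counting expectation, so no pair looked like the same library.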

Additional observations from a re-analysis of the deposited data

How the results depend on the processing

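Across 15 alternatives, CHD1 (0.32 to 0.36), CHD2 (0.38 to 0.45) and CHD3 (-0.21 to -0.16) kept their direction and their call, as did CHD4 (-0.84 to -0.44) in the 14 in which it was tested. CHD6 and CHD8 passed in none of the 15 (lowest adjusted p 0.091 and 0.11). CHD7 lost its call once, with decimals dropped in all columns, and CHD9 in 8 alternatives. With decimals dropped in all columns, members higher with OTI-611 numbered 2 in place of 4, and members lower numbered 1 in place of 2 at a minimum mean of 5 RPKM, which leaves CHD4 out. CHD1L passed in none of its 9 alternatives, with differences from -0.10 to 0.21. The CHD3 to CHD4 log2 ratio differed by 0.63 to 0.80. Of 43 other listed genes that passed, 30 kept their call in every alternative and 13 lost it in at least 1, and none of the 43 changed direction. Of 25 that did not pass, 9 passed in at least 1. The alternatives for these other genes were chosen after seeing the data.

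With the replicate number as a block (replicate block), 7756 genes passed in place of 7805, and 3 members were higher, since CHD9 stood at an adjusted p of 0.073. Same-numbered libraries did not deviate together (correlations of 0.019, 0.00041 and -0.058 over 11978 genes), so the numbers were not taken to pair the libraries. Quantile normalization gave 4085 genes higher and 4115 lower, against 3332 and 4473. The whole numbers of DMSO 1 limit the precision of its values, and CHD1L is listed at 0 there. Cutting to whole units, as assumed here, also lowers its values, which moves the differences over 6 libraries upward. The median difference of all genes tested was -0.05 with DMSO 1 and -0.09 without it.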
